A study of Mus musculus with 30 samples.

Results

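Gastranaerophilales are an order of gut bacteria placed in the Cyanobacteria, and their abundance was followed in stool from female Gpr15l-/- (KO) and wild-type (WT) mice. Gpr15l encodes a secreted peptide ligand of the lymphocyte receptor GPR15. The members were chosen by name: every row of the deposited 16S count table whose taxon label holds Gastranaerophilales and that has reads in any of the 30 libraries. A row is 1 sequence variant, that is, 1 distinct 16S rRNA V4 amplicon sequence. Of 3697 rows, 20 carried the name and 8 of these had reads, out of 949 bacterial variants with reads. Which rows have reads was used to choose them and is not a result: the member with fewest had 199 reads, and the 12 rows left out had 0.

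The 30 libraries carry the numbers 1 to 30 in the labels and form 6 groups of 5. The KO mice at weaning are libraries 1 to 5 and the WT mice at weaning libraries 6 to 10, when the mice were about 4 weeks old. After 4 to 5 weeks in cages that held both genotypes, with 2 to 7 mice a cage, libraries 11 to 15 are KO and 16 to 20 WT. After 6 further weeks apart, libraries 21 to 25 are KO and 26 to 30 WT. The sources used here do not give the strain, the design of the deleted allele, the litter, the cage or which mouse is which across times. Co-housing and age therefore cannot be told apart, and mice of 1 cage or litter may share bacteria, in which case p-values over libraries are too small.

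Gastranaerophilales belong to the class Vampirivibrionia, earlier known as Melainabacteria, a branch of the Cyanobacteria that lacks the genes of photosynthesis. Their genomes describe strictly anaerobic fermenters of sugars, and they are ordinary, usually minor, residents of the intestine of mammals. Most are known from DNA only and have no cultured strain. Where a member carries a species label, it begins with "uncultured". The label was checked at each rank: all 8 rows are given as phylum Cyanobacteria, class Vampirivibrionia and order Gastranaerophilales. Chloroplast DNA from plant food is a usual source of cyanobacterial reads in stool, and the 4 further rows labelled Cyanobacteria or Chloroplast had 0 reads in the 30 libraries.

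The libraries held 10560 to 73776 reads. Levels are given as the percentage of a library's bacterial reads, which leaves out the 4 mitochondrial rows. A share does not separate more cells of the order from fewer cells of other bacteria, or from more 16S gene copies a cell. The weaning and co-housing libraries (10560 to 52398 reads) and the re-separation libraries (39735 to 73776 reads) have library names of different series and shared 0 rows with reads. The variants were therefore compared within each set of libraries and the order as a whole across both, and in comparisons that involve re-separation the time and the library set cannot be told apart. In an earlier look at these data libraries 1, 5, 11 and 19 stood apart from their groups over all bacteria. The edgeR calls for the order and its variants are given with and without them, other results only with them. Intervals and detection limits below cover counting error only.

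Each set of libraries held 4 of the 8 members, of 483 bacterial variants with reads at weaning and co-housing and 466 at re-separation. They are named here by their row in the table, since the table pairs a variant with a taxon name. Row 168 took 57.0% of the order's 4530 reads in the weaning and co-housing set, row 169 took 31.3%, row 171 took 7.28% and row 170 took 4.39%. In the re-separation set, with 11300 reads of the order, row 878 took 72.9%, row 879 took 20.2%, row 882 took 4.82% and row 881 took 2.09%. Both sets held 2 rows with the species label "uncultured_bacterium" (168 and 169, 878 and 879), 1 with "uncultured_rumen" (170, 881) and 1 with no species label (171, 882). Whether rows of the 2 sets stand for the same bacterium was not tested.

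The order had reads in all 30 libraries, at a mean of 1.37% of bacterial reads. At weaning it was more abundant in KO than in WT mice. It made up 4.75%, 3.09%, 2.17%, 0.151% and 1.82% of bacterial reads in KO libraries 1 to 5. In WT libraries 6 to 10 it made up 0.0723%, 0.109%, 0.533%, 0.0544% and 0.0397%. Of the 5 KO libraries 4 lay above every WT library, and library 4, with 50 reads of the order, lay within the WT range. The means were 2.40% ± 1.69 (SD, n = 5) and 0.162% ± 0.209 (SD, n = 5), and the WT mean was 0.0687% without library 8.

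**Figure D1:**
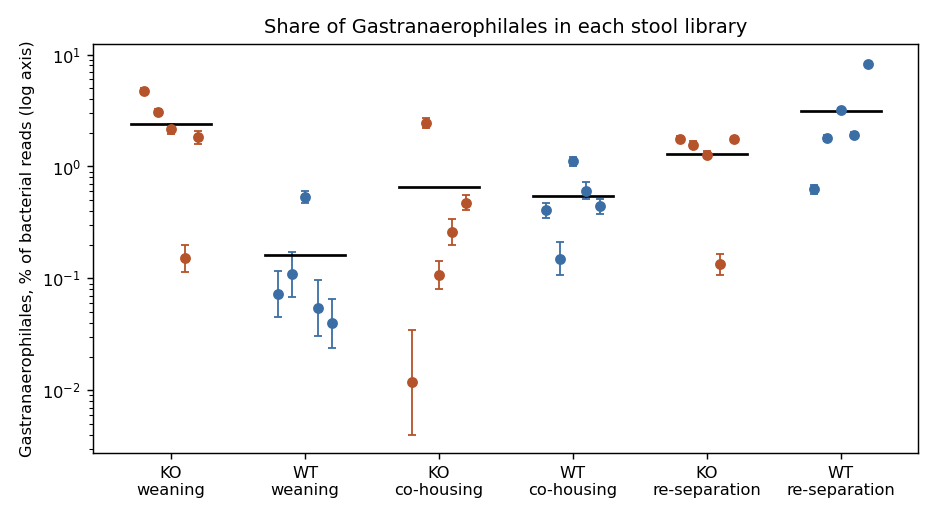
Share of Gastranaerophilales in each of the 30 libraries (percent of bacterial reads, log axis), by genotype and time, with 1 point per library, its 95% Wilson interval for counting error and a line at each group's mean. At weaning 4 of 5 KO libraries lie at 1.82% to 4.75%, above the highest WT library at 0.533%, and at co-housing and re-separation the genotypes overlap.

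The difference at weaning passed the test across all genera, with a log2 fold change of 3.04 ± 0.95 (SE; edgeR quasi-likelihood test, Benjamini-Hochberg adjusted p = 0.0149). Of the 71 genera tested, 23.9% were called at weaning in either direction and 8.45% were called higher in KO mice. The exact permutation test on the shares gave p = 0.0159 (two-sided) and 0.0476 after adjustment over 9 comparisons, where 0.00794 is the smallest p that 5 against 5 libraries allow. The edgeR call held without each library in turn, and the log2 fold change was 4.18 without library 8 and 2.70 without libraries 1, 5, 11 and 19 (edgeR adjusted p = 0.0295). Mitochondrial reads, which come from host or food cells, made up 0.166% ± 0.274 of all reads in KO and 0.0332% ± 0.0235 in WT libraries at weaning (SD, n = 5). The KO mean rested on library 5, at 0.653%, and was 0.0443% without it. The edgeR fit above leaves these reads out. With them kept the log2 fold change was 3.08 (edgeR adjusted p = 0.0132). Any other link between these reads and the difference was not tested.

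Row 168, the most abundant variant of its set, was found in 5 of 5 KO mice and 0 of 5 WT mice at weaning. It made up 4.75%, 2.33%, 1.40%, 0.0936% and 0.848% of bacterial reads in KO libraries 1 to 5, with a mean of 1.88% ± 1.80 (SD, n = 5). The WT libraries had 0 reads of it, and 3 reads in each would have been a mean share of 0.0121%. Row 168 was thus at least 156-fold higher in KO mice, or 96.7-fold without library 1, against this floor of 3 reads per library. The difference was called (edgeR adjusted p = 0.00179), and it was called without each library in turn and without libraries 1, 5, 11 and 19 (edgeR adjusted p = 0.0135). Among the 292 variants tested, 20.9% were called at weaning in either direction and 6.85% were called higher in KO mice. In KO libraries 1 to 5, row 168 held 100%, 75.5%, 64.3%, 62.0% and 46.6% of the order's reads, so library 1 had no read of another member.

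The other 3 variants of this set did not pass the test at weaning, and 1 of 4 members was called, against 20.9% of all 292 variants. Row 169, with the same species label as row 168, stood at 0%, 0.628%, 0.611%, 0.0302% and 0.581% in KO libraries 1 to 5. In WT libraries 6 to 10 it stood at 0.0426%, 0.0575%, 0.388%, 0.0544% and 0.0185%. The groups overlapped, with 3 KO libraries above all WT libraries and 2 KO libraries inside or below the WT range (log2 fold change 0.95 ± 1.52, edgeR adjusted p = 0.788). Row 169 made up 66.2% ± 21.2 of the order's reads in WT mice and 20.1% ± 12.3 in KO mice (SD, n = 5). Each library has equal weight here. WT libraries 6, 7, 9 and 10 held 17, 17, 11 and 15 reads of the order, and library 9 counts as 100%.

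Row 170 had reads in 3 of 5 KO and 4 of 5 WT mice at weaning, at means of 0.0483% ± 0.0572 and 0.0288% ± 0.0197 respectively (SD, n = 5; log2 fold change -0.11 ± 1.93, edgeR adjusted p = 1). Its sign changed with the scaling, to 0.72 with library size alone. Row 171 had reads in 4 of 5 KO mice, at 0.0272% to 0.267%, and among WT mice in library 8 alone, at 0.103% (log2 fold change 1.14 ± 2.12, edgeR adjusted p = 0.839). The median log2 fold change was 1.05 over the 4 members and -0.16 over all 292 variants.

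**Figure D2:**
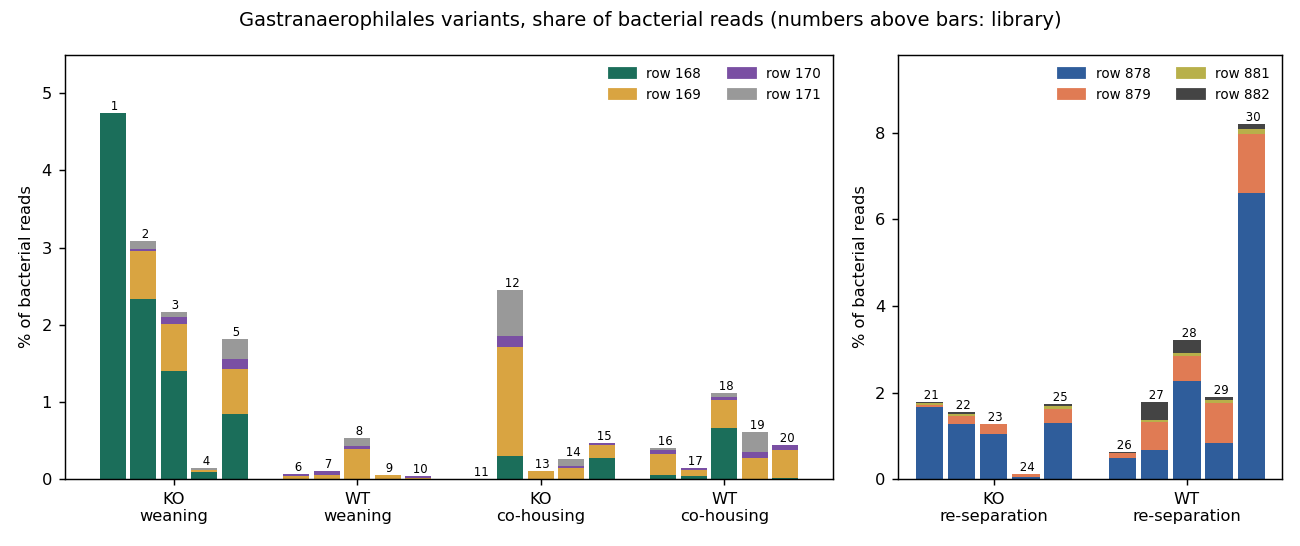
Share of the 8 variants in each library (percent of bacterial reads), stacked in 1 bar per library, by genotype and time, with the weaning and co-housing libraries on the left and the re-separation libraries, on an axis of their own, on the right. Row 168 is at 0 reads in all 5 WT libraries at weaning and at 0.0936% to 4.75% in the 5 KO libraries.

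After co-housing, the genotypes had similar mean shares of the order, with wide and overlapping ranges. KO libraries 11 to 15 held 0.0118%, 2.45%, 0.107%, 0.261% and 0.477%. WT libraries 16 to 20 held 0.405%, 0.150%, 1.12%, 0.609% and 0.441%. The KO mean was 0.661% ± 1.01 (SD, n = 5) and rested on library 12, without which it was 0.214%. The WT mean was 0.545% ± 0.360 (SD, n = 5).

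The log2 fold change of KO over WT at co-housing was 0.041 ± 0.88 (SE, edgeR adjusted p = 1), or -1.44 without library 12 (edgeR adjusted p = 0.602). Of all genera, 1.41% were called at this time. The SE leaves room for a difference of either sign, so this does not show that the levels were equal.

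Row 168, at 0 reads in the WT libraries at weaning, was found after co-housing in 4 of 5 WT mice and in 2 of 5 KO mice. The WT shares in libraries 16 to 20 were 0.0598%, 0.0470%, 0.670%, 0% and 0.0174%, from 22, 10, 255, 0 and 6 reads. The KO libraries with reads were 12, with 0.305% (49 reads), and 15, with 0.276% (85 reads). The WT mean of 0.159% ± 0.287 (SD, n = 5) was at least 13.1-fold above the floor of the WT mice at weaning, and 2.57-fold without library 18.

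This difference between the times in WT mice did not pass the threshold (edgeR adjusted p = 0.0634), in a comparison that called 0.685% of variants. It passed under several alternatives, among them DESeq2 (adjusted p = 0.0175), library size as the only scaling (edgeR adjusted p = 0.0387) and the fit without library 19 (edgeR adjusted p = 0.0319). Of the 292 variants, DESeq2 called 24 and limma-voom 56, and limma-voom did not call row 168. In KO mice row 168 stood at 1.88% at weaning and 0.116% ± 0.159 after co-housing (SD, n = 5), with a log2 fold change of -3.90 ± 1.78 that was not called (edgeR adjusted p = 0.0831, or 0.00433 with limma-voom). In this comparison 27.1% of variants were called.

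The difference between the genotypes in row 168 changed between weaning and co-housing (interaction term, edgeR adjusted p = 0.00521), a call that held without each library in turn and without libraries 1, 5, 11 and 19 (edgeR adjusted p = 0.0454). Of all variants, 6.16% were called for this change and 2.05% in its direction, toward a smaller excess in KO mice. At co-housing itself row 168 did not differ by the test between KO and WT mice (log2 fold change -0.53 ± 1.59, edgeR adjusted p = 0.985, with 1.03% of variants called). The estimate turned to 1.99 without library 18, the WT library with most reads of the variant.

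Row 169 was the widest spread of the 4 variants, with reads in 19 of 20 libraries. After co-housing its mean share was 0.369% ± 0.586 in the KO libraries and 0.269% ± 0.118 in the WT libraries (SD, n = 5; edgeR adjusted p = 0.985). Leaving out library 12 brought the KO share to 0.108% on average, and turned the log2 fold change from 0.24 to -1.21. Row 169 made up 69.7% ± 29.0 of the order's reads in KO mice and 54.9% ± 20.0 in WT mice. Each library has equal weight in these means, and KO library 11 counts as 100% from 3 reads of the order. Row 170 had reads in 3 of 5 KO and 5 of 5 WT mice, and row 171 in 2 of 5 KO and 3 of 5 WT mice. None of the 4 members was called between the genotypes at co-housing by edgeR, and 0 of 4 had an unadjusted p under 0.05. Of all 292 variants, 3 were called (1.03%) and 41 had an unadjusted p under 0.05.

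**Figure D3:**
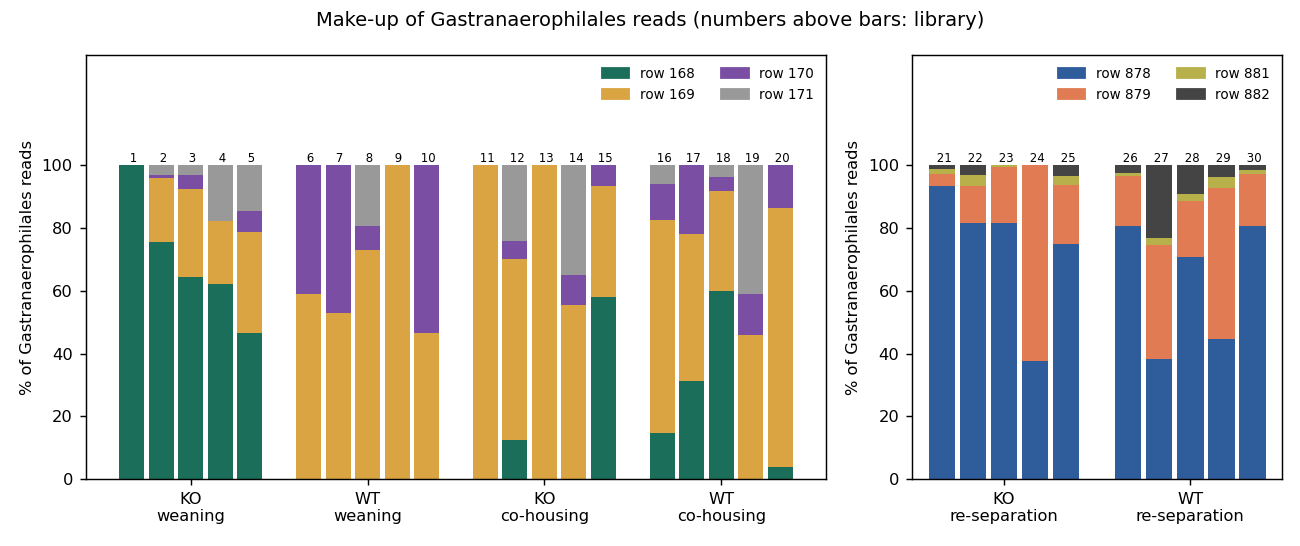
Make-up of the order in each of the 30 libraries, as the percentage of the library's Gastranaerophilales reads that each variant holds, in 1 stacked bar per library. Row 168 holds 46.6% to 100% in the KO libraries at weaning and 0% in the WT libraries, and row 878 holds 37.6% to 93.4% in the KO and 38.2% to 80.6% in the WT libraries at re-separation.

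After re-separation the order's mean was higher in WT than in KO mice, and the difference did not pass the test. KO libraries 21 to 25 held 1.78%, 1.56%, 1.28%, 0.134% and 1.75%. WT libraries 26 to 30 held 0.625%, 1.80%, 3.21%, 1.90% and 8.21%. Of the 5 WT libraries 4 lay above every KO library, and WT library 26 lay below 4 of the 5 KO libraries. The means were 1.30% ± 0.682 and 3.15% ± 2.97 (SD, n = 5), or 1.88% ± 1.06 in WT mice without library 30.

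The log2 fold change of KO over WT was -1.11 ± 0.89 (SE, edgeR adjusted p = 0.733), and -0.34 without library 30. No genus was called at this time by edgeR (0% of 71) or DESeq2 and 1 was called by limma-voom, while 6 had an unadjusted edgeR p under 0.05. The exact permutation test on the shares gave p = 0.167 (two-sided), or 0.25 after adjustment over the 9 comparisons.

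All 4 variants of the re-separation set had a lower mean in KO mice, and none was called. Row 878, the main variant, stood at 1.66%, 1.28%, 1.04%, 0.0503% and 1.31% in KO libraries 21 to 25. In WT libraries 26 to 30 it stood at 0.503%, 0.686%, 2.27%, 0.845% and 6.62%. The ranges overlapped, and WT library 30 lay far above all others (log2 fold change -1.11 ± 0.87, edgeR adjusted p = 0.667). Without library 30 the value was -0.10.

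Row 879 stood at 0.0652%, 0.181%, 0.228%, 0.0833% and 0.328% in KO libraries and at 0.0992%, 0.649%, 0.574%, 0.915% and 1.34% in WT libraries. Here 4 of 5 WT libraries lay above every KO library, as for the order, and library 26 lay among the KO values. The log2 fold change was -2.07 ± 0.66, with an unadjusted p of 0.00925 that did not pass over all 278 variants (edgeR adjusted p = 0.161). Row 881, the rarest, had reads in 4 of 5 KO and 5 of 5 WT mice (log2 fold change -1.27 ± 1.12, edgeR adjusted p = 0.711).

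Row 882 had reads in 3 of 5 KO mice, at 0.0254% to 0.0630%, and in 5 of 5 WT mice, at 0.0163% to 0.416% (log2 fold change -2.95 ± 1.36, edgeR adjusted p = 0.484). The median log2 fold change of the 4 members was -1.67, against -0.35 over all variants. Of all variants 1.44% were called. Among the members 1 had an unadjusted p under 0.05 and 0 were called by edgeR, DESeq2 or limma-voom. Of the 278 variants, 29 had an unadjusted edgeR p under 0.05, and DESeq2 called 16 and limma-voom 22.

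In WT mice the order rose from weaning to re-separation, from 0.162% to 3.15% of bacterial reads (log2 fold change 3.78 ± 0.98, edgeR adjusted p = 0.0110). Every WT library at re-separation, the lowest at 0.625%, lay above every WT library at weaning, the highest at 0.533%. In this comparison 12.7% of genera were called and 9.86% were called higher. The exact permutation test gave p = 0.00794 (two-sided), or 0.0476 after adjustment over the 9 comparisons. Without library 10 the call was lost (3.55, edgeR adjusted p = 0.0521), without library 8 the value was 5.01 and without library 30 it was 3.01. Without libraries 1, 5, 11 and 19 it was 3.76 (edgeR adjusted p = 0.00361).

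The steps between were not called in WT mice. Co-housing against weaning gave a log2 fold change of 1.08 ± 0.89 (edgeR adjusted p = 0.312, with 29.6% of genera called). Re-separation against co-housing gave 2.70 ± 0.94 (edgeR adjusted p = 0.131, with 1.41% of genera called). The latter was 1.93 without library 30, and passed under DESeq2 (3.20, adjusted p = 0.00891). It also passed in the exact permutation test on the shares (p = 0.0159, adjusted p = 0.0476).

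In KO mice no change of the order over time was called. The log2 fold change was -1.92 ± 0.91 from weaning to co-housing (edgeR adjusted p = 0.100, with 32.4% of genera called). Without library 12, the KO library with 2.45% after co-housing, it was -3.40 and passed (edgeR adjusted p = 0.00834). From co-housing to re-separation it was 1.55 ± 0.90 (edgeR adjusted p = 0.221, with 21.1% of genera called), or 3.03 without library 12 (edgeR adjusted p = 0.0379). From weaning to re-separation it was -0.37 ± 0.88 (edgeR adjusted p = 0.910, with 28.2% of genera called).

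**Figure D4:**
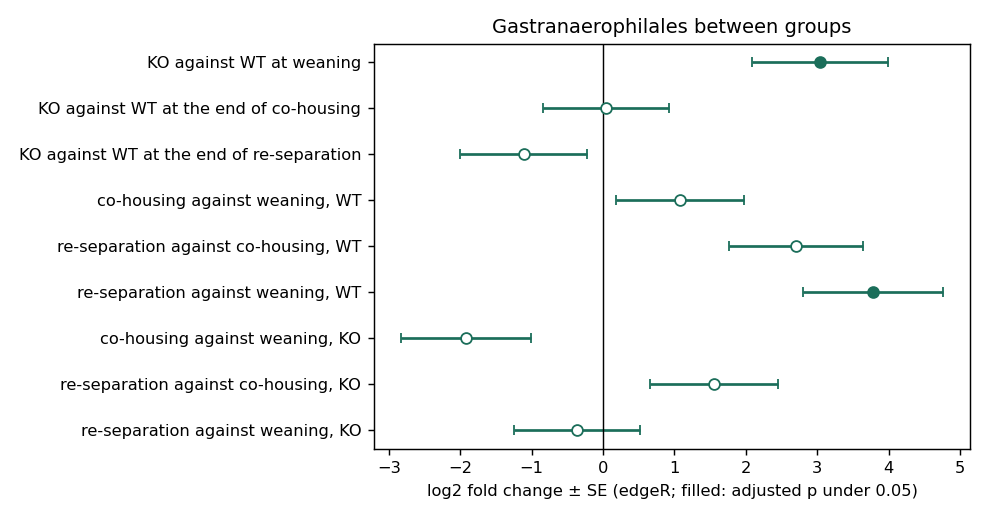
Fitted log2 fold changes of the order for the 3 genotype and 6 time comparisons, with bars of 1 SE and filled points where the edgeR adjusted p is under 0.05. The filled points are KO over WT at weaning (3.04) and re-separation over weaning in WT mice (3.78).

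The genotype difference itself changed between weaning and re-separation, by -4.15 ± 1.29 on the log2 scale (interaction term, edgeR adjusted p = 0.0197), from higher in KO mice to a lower KO mean. Among all genera 18.3% were called for this change and 4.23% in this direction. The call rested on single libraries: it was lost without library 1 (-3.75, edgeR adjusted p = 0.0574) and without library 30 (-3.38, edgeR adjusted p = 0.0774), and the value was -5.37 without library 8. Without libraries 1, 5, 11 and 19 it was -3.81 (edgeR adjusted p = 0.0289). From weaning to co-housing the change was -3.00 ± 1.27 (edgeR adjusted p = 0.142, with 4.23% of genera called). It passed without library 8 (-4.14, edgeR adjusted p = 0.0400) and without library 12 (-4.48, edgeR adjusted p = 0.0160). From co-housing to re-separation it was -1.15 ± 1.25 (edgeR adjusted p = 1.00, with 0% of genera called). No genus was called for this last change by edgeR or limma-voom and 1 by DESeq2, with 5 at an unadjusted edgeR p under 0.05.

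Ordered by mean share, the groups ran from WT at weaning (0.162%) through WT at co-housing (0.545%), KO at co-housing (0.661%), KO at re-separation (1.30%) and KO at weaning (2.40%) to WT at re-separation (3.15%). None of the 4 neighbouring pairs that were tested, from WT at weaning up to KO at weaning, passed the edgeR test. KO at weaning and WT at re-separation overlapped in range and were not tested against each other. The order rests on single libraries: without library 30 the WT mean at re-separation was 1.88%, below KO at weaning, and without library 12 the KO mean at co-housing was 0.214%, below WT at co-housing.

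The number of member variants in a library was compared at an even depth of 10491 bacterial reads. At weaning KO libraries held 3.18 ± 1.30 and WT libraries 1.96 ± 0.709 of the 4 variants of their set (SD, n = 5; exact permutation p = 0.103, adjusted over 3 times 0.246). After co-housing the values were 2.35 ± 1.39 and 3.36 ± 0.556 (exact permutation p = 0.246, adjusted 0.246). After re-separation they were 3.31 ± 0.930 and 3.87 ± 0.277 (exact permutation p = 0.190, adjusted 0.246). No difference in the number of variants was thus detectable.

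Shares of the member variants were set against each other over the 10 libraries of a time, for 18 pairs. After co-housing rows 169 and 170 varied together, with Pearson's r = 0.914 (permutation p = 0.00038, adjusted 0.00684) and Spearman's rho = 0.881 (permutation p = 0.00134, adjusted 0.0241). Without the 2 libraries farthest from the median of the first-named row r was 0.735, and the same rule is used for the pairs below. This pair alone passed on both measures. At weaning rows 169 and 171 had r = 0.788 (permutation p = 0.00355, adjusted 0.0160) and rho = 0.756 (permutation p = 0.0174, adjusted 0.0533). Without the 2 farthest libraries r was 0.962. Those were libraries 2 and 3, chosen by row 169 alone, and library 5, the highest for row 171 at 0.267%, was kept. After re-separation rows 879 and 881 had r = 0.864 (permutation p = 0.0015, adjusted 0.0135) and rho = 0.770 (permutation p = 0.0135, adjusted 0.0533). Without the 2 farthest libraries r was 0.669. The other 2 pairs that passed on r but not on rho were rows 170 and 171 after co-housing (r = 0.884, permutation p = 0.00532, adjusted 0.0192; rho = 0.616, adjusted 0.146) and rows 878 and 881 after re-separation (r = 0.815, permutation p = 0.00302, adjusted 0.0160; rho = 0.745, adjusted 0.0533). Without the 2 farthest libraries their r was 0.592 and 0.493. Row 168 at weaning falls into libraries with and without reads by genotype, so no pooled r is given for it. With 5 libraries a group, the relations were not tested within a genotype. The permutations mixed KO and WT libraries, so joint variation cannot be told apart from a difference between the genotypes that both rows share.

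The genera whose share ran most like that of the order were ranked in each of the 2 sets of libraries. Over the 20 weaning and co-housing libraries, Spearman's rho with 70 other genera was highest for Escherichia-Shigella, facultative anaerobes (0.51), Bilophila, a sulfite reducer (0.48), and Parabacteroides, a saccharide fermenter of the Bacteroidales (0.42). It was lowest for unclassified Erysipelotrichaceae (-0.58) and Lactobacillus (-0.47). For Escherichia-Shigella, at a mean of 0.046% of bacterial reads, rho was 0.69 at weaning alone. At co-housing alone its rho could not be computed, because its share did not vary there. Over the 10 re-separation libraries rho was highest for Alistipes, of the Rikenellaceae (0.95), Tyzzerella (0.79) and Odoribacter, a butyrate former (0.68). It was lowest there for Anaerotruncus (-0.75) and the mucin degrader Akkermansia (-0.70). Akkermansia had a mean of 0.0056% of bacterial reads at re-separation, so its rho ranks libraries by very few reads and does not establish an inverse relation. Parabacteroides and Lactobacillus had values of the same sign at re-separation (0.65 and -0.44), while Escherichia-Shigella (-0.49) and Bilophila (-0.26) had the opposite sign there. In the weaning and co-housing set rho was 0.17 for Alistipes, 0.020 for Odoribacter and 0.41 for Akkermansia. The differences between the sets were not tested. These values are a description: shares of 1 library sum to a whole and so are not independent, and the first set mixes genotypes that differed at weaning.

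Other orders known mainly from DNA were read from the same table for comparison. Clostridia UCG-014 had 0 reads in the KO mice at weaning and 0.150% ± 0.157 in the WT mice, and RF39 had 0 reads and 0.112% ± 0.136 (SD, n = 5). Both were called lower in KO mice at weaning (edgeR adjusted p = 0.000255 and 0.00151), the opposite direction to Gastranaerophilales. Of all 71 genera, 17 were called at weaning (23.9%), of which 6 were higher in KO mice (8.45% of all) and the rest lower. The Clostridia vadinBB60 group was not called (0.330% ± 0.371 in KO mice, 0.289% ± 0.356 in WT mice, edgeR adjusted p = 0.534). After co-housing and after re-separation 0 of these 3 were called between the genotypes by edgeR, with 1.41% and 0% of all genera called.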

How the data were processed

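Stool DNA in 30 libraries was amplified at the 16S V4 region and sequenced as paired ends, per the labels' protocols. The authors deposited 1 table of raw read counts per sequence variant with a taxon label. R 4.5.1 and limma are named in the submitters' processing notes; the denoising settings and the taxonomy database are not stated there. Replicates are libraries that the labels give as separate samples, and nothing in the labels ties them to cages. The 60 pairs of libraries within a group differed by more than counting noise (chi-square per degree of freedom 30.9 to 296).

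Mitochondrial rows were left out. Counts were summed to 71 genera, with the order as 1 of them, over 30 libraries, or kept as 292 and 278 variants within a library set. Features needed 10 reads in 3 libraries. edgeR 4.0.16 in R 4.3.3 (TMMwsp factors, robust quasi-likelihood test, 1 coefficient per group, Benjamini-Hochberg over all features, threshold 0.05) gave the calls. SEs were derived from the F statistic. Shares were tested by exact permutation over 252 orderings, an alternative chosen after seeing the data. Correlation p-values came from 100000 permutations, and intervals use Wilson's method at 95%. Alternatives were library size alone, DESeq2 factors, DESeq2 1.42.0, limma-voom (3.58.1), filters, fits on only the groups compared, each library left out, and libraries 1, 5, 11 and 19 left out together, which stood apart in an earlier look at these data. The fits were tested on simulated independent libraries with planted changes larger than any fitted here for the order. That test does not cover smaller changes or libraries from mice that share a cage. Every member was to be named, with the 3 most and 2 least similar genera of each set. The members, lists and tests were chosen with earlier results of these data known.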

Additional observations from a re-analysis of the deposited data

Results flagged for a closer look

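Of 29 groups of 5 libraries examined, 10 held a library whose gap to the nearest other library was large against the range of its group. For normally distributed values chance gives this in about 1 of 20 groups. The rate for skewed shares with many zeros, as here, was not measured, and the order and its variants share libraries, so these are not independent. Library 8 (WT, weaning) stood apart for the order at 0.533%, for row 169 at 0.388% and for row 171 at 0.103% of bacterial reads. Library 12 (KO, co-housing) stood apart for the order at 2.45%, for row 169 at 1.41%, for row 170 at 0.143% and for row 171 at 0.591%. Library 18 (WT, co-housing) stood apart for row 168 at 0.670%, library 19 of the same group for row 171 at 0.250%, and library 30 (WT, re-separation) for row 878 at 6.62%.

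For 2 results the difference between the genotypes itself changed over time. The order's log2 fold change of KO over WT moved by -4.15 from weaning to re-separation (edgeR adjusted p = 0.0197), times that also differ in library set. That of row 168 moved by -12.21 from weaning to co-housing (edgeR adjusted p = 0.00521). The size of the latter depends on the fit's handling of the WT group at 0 reads and is no bound.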

How the results depend on the processing

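Across 20 results and 416 alternative values, 387 kept their direction and their side of the threshold, 3 no longer passed, 11 newly passed, 7 counts moved and 8 values changed sign. The KO difference of the order at weaning passed under every alternative run, from 2.64 to 4.18 without 1 library (edgeR adjusted p 0.00416 to 0.0456). At co-housing it was -1.13 with limma-voom and -1.44 to 0.45 without 1 library. In WT mice, re-separation against co-housing newly passed with DESeq2 (3.20), only the groups compared (2.93), libraries 1, 5, 11 and 19 left out (2.90) and the exact permutation test on shares (log2 ratio of means 2.53). Against weaning it was 3.01 to 5.01 without 1 library. In KO mice, co-housing against weaning newly passed with DESeq2 (-2.44) and limma-voom (-3.03), and was -3.40 to -1.52 without 1 library. Re-separation against co-housing newly passed with limma-voom (2.69) and was 1.15 to 3.03 without 1 library, and re-separation against weaning was -0.87 to 0.030. The changes of the genotype difference without 1 library were -4.48 to -2.60 (co-housing against weaning), -1.63 to 0.33 (re-separation against co-housing, 0.17 with limma-voom) and -5.37 to -3.38 (re-separation against weaning). The count of member variants called in WT mice from weaning to co-housing, 0, became 1 under library size, DESeq2, no filter, only the groups compared and libraries 1, 5, 11 and 19 left out, and was 0 to 1 without 1 library. In KO mice it became 1 with limma-voom, which called 39 of all 292 variants there. In WT mice DESeq2 called 24 of all 292 variants, and limma-voom called 56 with 0 members among them.

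Of single variants that were not called, signs changed as follows. At weaning row 170 became 0.72 (library size), 0.14 (DESeq2 factors), 0.13 (DESeq2), 0.068 (10 reads in 5 libraries) and 0.56 (only the groups compared), and was -0.61 to 0.28 without 1 library. At co-housing limma-voom gave -0.73 for row 169 and -0.37 for row 171, and without 1 library rows 168 to 171 were -1.30 to 1.99, -1.21 to 1.05, -2.02 to 0.032 and -2.07 to 2.71. From weaning to co-housing in WT mice row 171 was -1.11 with libraries 1, 5, 11 and 19 left out and -1.08 to 7.23 without 1 library. In KO mice row 169 was 0.0032 (library size), 0.58 (limma-voom) and 0.15 (only the groups compared), row 170 was 0.34 with those libraries left out and row 171 was -1.69 with limma-voom. Without 1 library these 3 were -1.48 to 0.57, -1.42 to 0.43 and -2.16 to 1.04. The change of the genotype difference with those libraries left out was 0.13 for row 170 and 2.05 for row 171, the latter -6.80 to 1.54 without 1 library. The causes were not tested. Library size in place of TMMwsp moved the median log2 fold change of all genera by 0.77 at weaning, 0.78 from weaning to co-housing in WT mice and -0.90 for the change of the genotype difference from weaning to re-separation. The WT libraries at weaning other than library 8 held 11 to 17 reads of the order, which limits what could be told apart there. No paired analysis was possible because the labels number the libraries 1 to 30 with no number shared between groups.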
